A study of Mus musculus with 2 samples.

Results

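The miR-34 and miR-449 family is a group of small regulatory RNAs made from hairpin precursors at the miR-34a, miR-34b/c and miR-449 loci. Its members were taken by name, and 8 of the 1909 mature microRNAs in the deposited tables belonged to it. They were mmu-miR-34a-5p, mmu-miR-34a-3p, mmu-miR-34b-5p, mmu-miR-34b-3p, mmu-miR-34c-5p, mmu-miR-34c-3p, mmu-miR-449a-5p and mmu-miR-449c-5p, written below without the prefix for mouse. Small RNA was sequenced from smooth muscle cells cultured from the thoracic aorta of male mice aged 10 to 12 weeks, grown with 10% fetal bovine serum. The diabetic db/db mouse (background BKS.Cg-m+/+Leprdb/J) carries leptin receptor genes that do not work, and it grows obese and develops diabetes of type 2. The control db/+ mouse is labelled Lepr+/- and keeps 1 normal copy of the receptor gene. There was 1 library per group, and the number of mice or cultures behind each is not stated in the sources used here. Every difference below is therefore between 2 libraries, and no test of genotype was possible.

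A microRNA guides a silencing complex to messenger RNAs that pair with its seed, here bases 2 to 8 from its 5′ end. The 5p members of this family are known to lower cyclins, cyclin-dependent kinases, Bcl2 and Sirt1. Transcription of the miR-34 loci is raised by p53, and miR-34a is known from ageing and senescent vessels. The miR-34b/c and miR-449 loci are best known from multiciliated epithelia and testis, where both act in the formation of motile cilia.

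Mature sequences were found for 7 of the 8 members in the RefSeq table (GRCm38.p6). They are printed because the shared seed is what joins miR-34 and miR-449 into a family, and because closely similar names could share reads. Capitals mark the seed. The exception is miR-34c-5p.
miR-34a-5p: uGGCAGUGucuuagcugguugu
miR-34b-5p: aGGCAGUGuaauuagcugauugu
miR-449a-5p: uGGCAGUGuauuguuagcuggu
miR-449c-5p: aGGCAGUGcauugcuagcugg
miR-34a-3p: aAUCAGCAaguauacugcccu
miR-34b-3p: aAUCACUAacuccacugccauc
miR-34c-3p: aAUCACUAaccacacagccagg

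The 4 printed 5p members had the same seed, and no other of the 1679 mature names in the table had it. Neither miR-34c-5p nor miR-449b was among those names, so their seeds were not compared here. On the 3p side miR-34b-3p and miR-34c-3p shared a seed, found in 0 other names, while that of miR-34a-3p was its own. Beyond the seed the members diverged. The closest of the printed 5p pairs differed by 4 single-base edits (substitutions, insertions or deletions). They were miR-34a-5p with miR-34b-5p and miR-449a-5p with miR-449c-5p. The 3p arms miR-34b-3p and miR-34c-3p differed by 5. Without its sequence, miR-34c-5p could not be compared with any member. The nearest name outside the family was 6 edits away from miR-449c-5p and 7 or 8 from the others. No member had the same pair of counts as another name. How reads that match several names were counted is not stated in the sources used here, so single values of the closest pairs carry that uncertainty. So do those of miR-34c-5p and of any member close to it, since that closeness was not measured.

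The members lie at 3 places in the genome. In GENCODE M21 on GRCm38 the Mir34a hairpin is at chr4:150068454-150068555 on the plus strand. An exon of Gm37795, an unconfirmed transcript model, overlaps 17 bases of this hairpin, and no other annotated gene covers it. The Mir34b and Mir34c hairpins are at chr9:51103562-51103645 and chr9:51103034-51103110 on the minus strand, 451 bases apart, and lie opposite an intron of Btg4. The Mir449c, Mir449b and Mir449a hairpins are at chr13:113035983-113036091, chr13:113037419-113037498 and chr13:113037534-113037624 on the plus strand, within an intron of Cdc20b.

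Total counts were 25915732 for db/+ and 24295112 for db/db. Levels are given as CPM, counts per 1000000 microRNA counts of the library, with exact 95% intervals (Poisson for a level, conditional Clopper-Pearson for a ratio). These cover counting error only, since there was 1 library per group. Reads are PCR copies, with no molecular identifiers as far as is stated, so the intervals can be too narrow even for counting error. A count of 0 allowed up to 3 counts, or 0.116 CPM for db/+ and 0.123 CPM for db/db. The 4 arms of the smooth muscle microRNAs miR-143 and miR-145a summed in db/+ to 1656 CPM and in db/db to 1567 CPM. By themselves these levels do not establish the labelled cell type. Endothelial markers summed to 0.270 and 2.92 CPM, and blood markers, 3 of 5 of which were at 0 in both libraries, to 0.695 and 0.659 CPM. In bulk cells, fewer cells that make a microRNA and less of it per cell cannot be told apart.

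In db/+ the family members together took 48823 counts (1884 CPM), against 31683 (1304 CPM) in db/db. The ratio of db/db over db/+ was 0.692 (0.682 to 0.702). That total was nearly all miR-34c-5p, with 94.8% of family counts for db/+ (exact binomial interval 94.6 to 95.04) and 95.8% for db/db (95.5 to 95.97). Without it the other 7 members summed to 97.2 CPM and 55.4 CPM, a ratio of 0.570 (0.533 to 0.609). In sum, the miR-34 and miR-449 members lay on opposite sides. The miR-449 side rested mostly on miR-449c-5p, with 1 count in db/+ against 26 in db/db. For miR-449a-5p the interval of the ratio included 1 (0.901 to 3.63). The 6 miR-34 arms summed to a ratio of 0.691 (0.682 to 0.701), and the 2 miR-449 arms, on 16 and 51 counts, to a ratio of 3.40 (1.91 to 6.39).

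**Figure D1:**
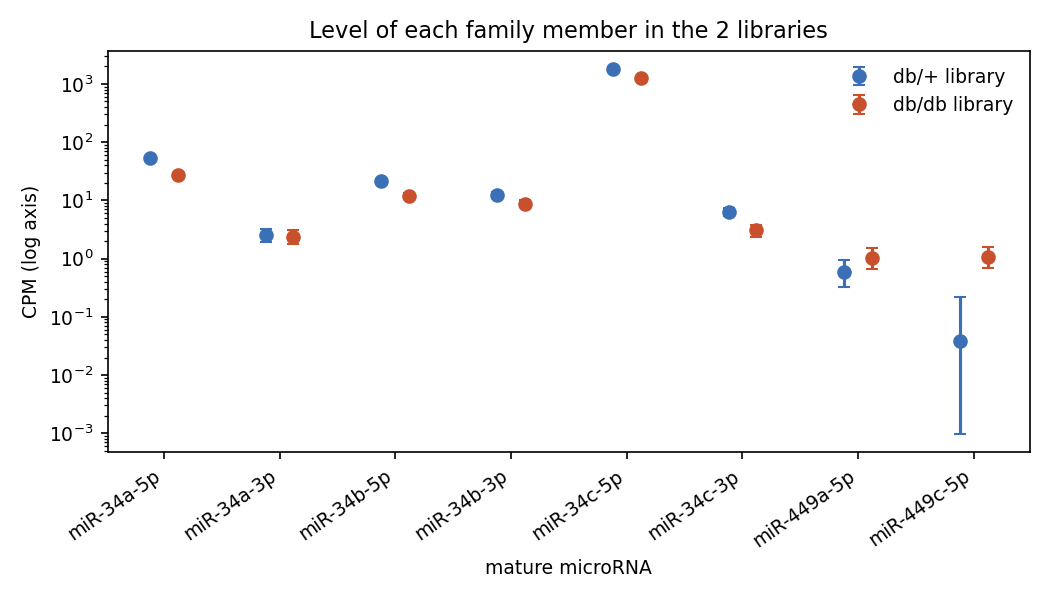
CPM of each member (log axis) in the db/+ library (blue) and the db/db library (orange), 1 library each, with exact Poisson 95% intervals. The level of miR-34c-5p, at 1787 and 1249 CPM, stands far above the others, and the 2 miR-449 arms are lowest in db/+.

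Of the 8 members 6 reached 50 counts, all 6 of them in both libraries, and these were the 6 miR-34 arms. Each of the 6 had a ratio below 1, as did 57.0% of the 356 microRNAs that reached 50 counts in either library. For 5 of the 6 the interval also lay below 1, against 44.1% of the 356. The size rule, a ratio of at most 0.5 or at least 2, took 1 of the 6 as lower, where 13.5% of the 356 were, and 0 as higher, where 4.49% were. The median log2 ratio of the 6, with 0.5 counts added, was -0.68, beside -0.14 over the 356. The direction of miR-34a-3p depended on the scaling, since its ratio was 1.0004 with upper-quartile factors and 1 in the deposited TMM reads.

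The most abundant member, miR-34c-5p, was counted 46304 times in db/+ (1787 CPM, 1770 to 1803), against 30338 times in db/db (1249 CPM, 1235 to 1263). It ranked 24th of all listed microRNAs in db/+ and 26th in db/db. The db/db library was lower, with a ratio of 0.699 (0.689 to 0.709), and ranked 95th from the lowest among the 356.

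The p53-responsive miR-34a-5p was counted 1389 times in db/+ (53.6 CPM, 50.8 to 56.5), against 657 times in db/db (27.04 CPM, 25.01 to 29.2). Its level in db/db was close to the size limit, with a ratio of 0.505 (0.459 to 0.554). It ranked 108th in db/+ and 135th in db/db.

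The third 5p arm, miR-34b-5p, was counted 564 times in db/+ (21.8 CPM), against 293 times in db/db (12.06 CPM). The ratio was 0.554 (0.480 to 0.639), so all 3 of the miR-34 5p arms were lower in the db/db library.

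Their sizes were not all alike. The ratio of miR-34a-5p was 0.722 times that of miR-34c-5p (exact conditional interval 0.656 to 0.794), and the ratio of miR-34b-5p was 0.793 times it (0.686 to 0.915). Both intervals exclude 1, and neither value depends on the scaling. Between miR-34a-5p and miR-34b-5p, from different chromosomes, the corresponding value was 0.910, with an interval that included 1 (0.767 to 1.08).

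Although the Mir34b and Mir34c hairpins are neighbours, their mature levels were far apart within each library. Counts of miR-34c-5p were 82.1 times those of miR-34b-5p in db/+ (75.6 to 89.4) and 103.5 times in db/db (92.3 to 117). Relative to miR-34a-5p they were 33.3 times as many in db/+ (31.6 to 35.2) and 46.2 times in db/db (42.7 to 49.96). The balance within the family was thus further toward miR-34c-5p in the db/db library. Ligation and amplification can favour particular sequences, so counts of different microRNAs are not a direct measure of their molar amounts.

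**Figure D2:**
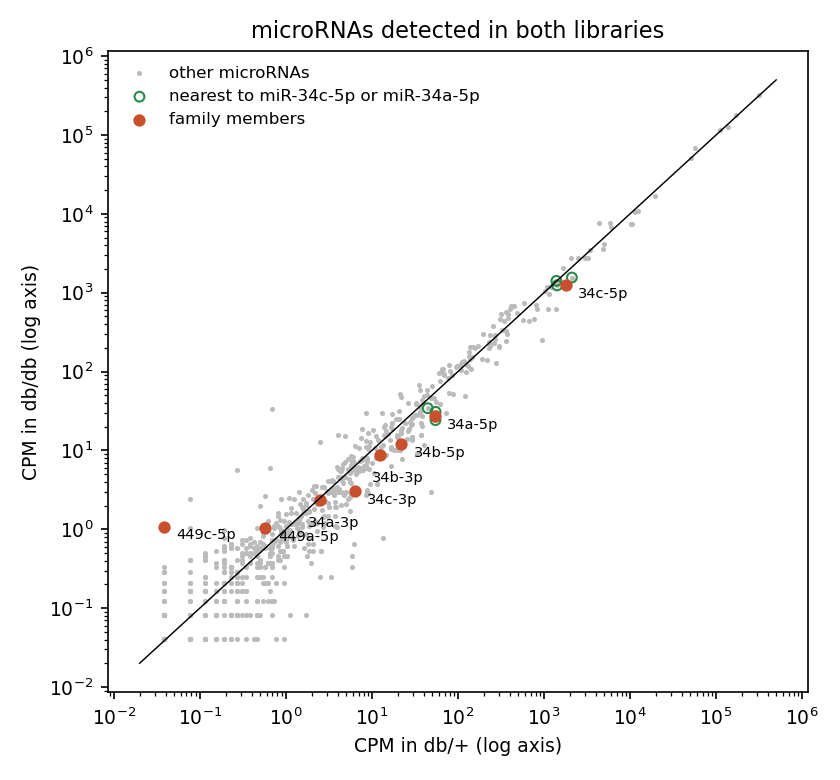
CPM in db/+ against CPM in db/db (log axes) for the microRNAs detected in both libraries, with the family in orange, the microRNAs nearest to miR-34c-5p and miR-34a-5p as green circles and the line of equal levels. The miR-34 arms lie on or under the line and both miR-449 arms above it, miR-449c-5p farthest.

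The 3p arms are usually the less stable strands of these hairpins. Of the 3, miR-34b-3p was most abundant, at 321 counts in db/+ (12.4 CPM) against 213 in db/db (8.77 CPM), and its ratio was 0.708 (0.592 to 0.844). The lowest ratio of the family belonged to miR-34c-3p, at 164 counts in db/+ (6.33 CPM) against 74 in db/db (3.05 CPM). It was the only member past the size rule, at 0.481 (0.361 to 0.637), and its interval reached above 0.5.

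The arm opposite miR-34a-5p was counted too rarely for a close estimate of its ratio. For miR-34a-3p there were 65 counts in db/+ (2.51 CPM) against 57 in db/db (2.35 CPM), so the ratio was 0.935, with an interval that included 1 (0.644 to 1.36). At this depth a ratio within that interval could not be told from 1.

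Arm shares compare 2 strands of the same hairpin in the same library and so do not depend on scaling. The Mir34a and Mir34b hairpins are printed from RefSeq (GRCm38.p6), because their arms differed in ratio. The arms of Mir34c differed as well, but its hairpin is not printed because no sequence was found for miR-34c-5p. Capitals mark the 5p arm, on the left, and the 3p arm.
Mir34a: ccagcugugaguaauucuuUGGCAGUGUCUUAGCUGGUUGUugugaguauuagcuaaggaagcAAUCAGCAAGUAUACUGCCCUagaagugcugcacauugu
Mir34b: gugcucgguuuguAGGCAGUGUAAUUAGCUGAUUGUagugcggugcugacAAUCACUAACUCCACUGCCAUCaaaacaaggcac

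The 5p arm was the major one in all 3 miR-34 hairpins and both libraries. For miR-34a the db/+ library had a 5p share of 95.5% (exact binomial interval 94.3 to 96.5) on 1454 counts, and the db/db library one of 92.02% (89.8 to 93.9) on 714. The intervals do not overlap, and the 5p to 3p count ratio in db/db was 0.539 times that in db/+ (0.367 to 0.794). For miR-34b the share was the most even of the 3, at 63.7% (60.5 to 66.9) on 885 counts for db/+ and 57.9% (53.5 to 62.2) on 506 for db/db. Its count ratio was 0.783 times as large (0.622 to 0.985), with an interval just under 1, while the intervals of the 2 shares overlap.

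The third hairpin went the other way. For miR-34c the share was 99.65% (99.59 to 99.70) on 46468 counts for db/+ and 99.76% (99.69 to 99.81) on 30412 for db/db, and the count ratio was 1.45 times as large in db/db (1.10 to 1.94). All 3 intervals of the count ratio exclude 1, as did 36.8% of the 204 hairpins whose arms together reached 50 counts in both libraries. The 5p share of db/db minus that of db/+ was -3.51 percentage points for miR-34a, -5.82 for miR-34b and 0.110 for miR-34c. The median absolute difference over the 204 was 0.917 points, and 60 hairpins differed by more than miR-34a, 37 by more than miR-34b and 154 by more than miR-34c.

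**Figure D3:**
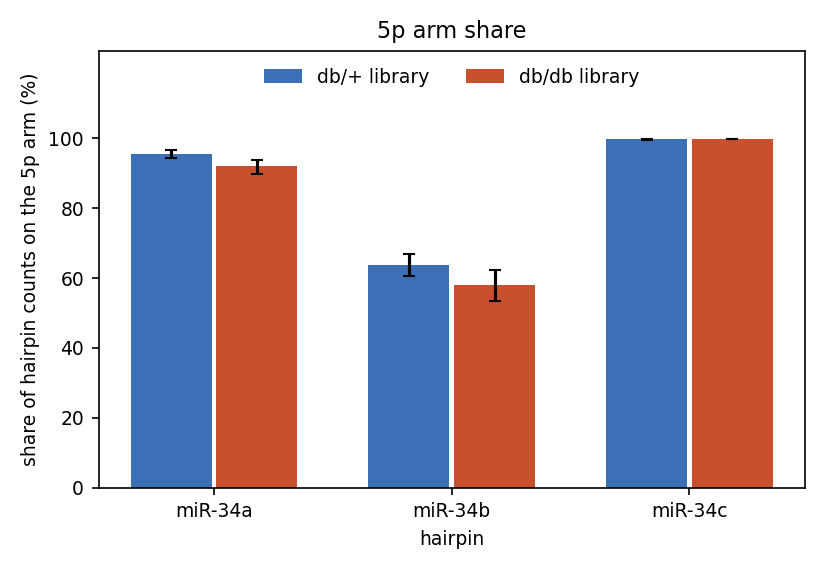
Share of each hairpin's counts on its 5p arm (percent) in the db/+ library (blue) and the db/db library (orange), with exact binomial 95% intervals. The miR-34b bars, at 63.7% and 57.9%, are lowest, and the miR-34c bars are near the top of the scale in both libraries.

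The miR-449 arms were rare, and both stayed under 50 counts in each library. For miR-449a-5p there were 15 counts in db/+ (0.579 CPM, 0.324 to 0.955) against 25 in db/db (1.03 CPM, 0.666 to 1.52). The ratio was 1.78, with an interval that included 1 (0.901 to 3.63). For miR-449c-5p there was 1 count in db/+ (0.0386 CPM, 0.00098 to 0.215) against 26 in db/db (1.07 CPM, 0.699 to 1.57), giving a ratio of 27.7 whose interval ran from 4.56 to 1137. The other forms of the locus were at or near 0. The file lists miR-449b at 0 in db/+ and 2 counts in db/db, while miR-449a-3p and miR-449c-3p at 0 in both.

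Since they share a seed, miR-449a-5p and miR-34a-5p were compared directly, as pairs chosen after the values were seen. The ratio of miR-449a-5p was 3.52 times that of miR-34a-5p (exact conditional interval 1.77 to 7.24). The summed ratio of the 2 miR-449 arms was 4.92 times that of the 6 miR-34 arms (2.76 to 9.24). Within the locus the ratio of miR-449c-5p was 15.6 times that of miR-449a-5p, on an interval of 2.03 to 679 that rests on the single db/+ count. In absolute terms the loci were far apart, since miR-34a-5p had 92.6 times the counts of miR-449a-5p in db/+ (55.9 to 166) and 26.3 times in db/db (17.6 to 40.9).

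Other rare microRNAs give the scale for these low counts. Among 197 microRNAs with at least 10 but under 50 counts in their higher library, 9.64% had an interval above 1. As miR-449c-5p reached 10 counts only in db/db, nothing is read from its place among them. Epithelial markers, the cells in which miR-449 is best known, were also rare. All 8 were listed, and they summed to 17 counts in db/+ (0.656 CPM) against 29 in db/db (1.19 CPM), with a ratio of 1.82 (0.967 to 3.53). In db/+ 2 of the 8 were at 0, miR-200b-3p and miR-429-3p, and in db/db 3 were, miR-141-3p, miR-205-5p and miR-375-3p. The epithelial miR-200a-3p had 3 counts in db/+ against 12 in db/db, and for miR-200b-3p these were 0 and 7. They were 5 and 7 for miR-203-3p, 1 and 2 for miR-200c-3p and 0 and 1 for miR-429-3p. The other epithelial markers were lower in db/db, with 5 and 0 counts for miR-375-3p, 2 and 0 for miR-141-3p and 1 and 0 for miR-205-5p. Of the endothelial markers, miR-126a-5p had 2 and 58 counts, and miR-126a-3p had 5 and 13. The part of other cells in the miR-449 counts was not tested.

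The microRNAs linked to p53 by textbook knowledge were set beside the family. Of 11 named as raised or processed with p53, 10 were listed in the files and 7 reached 50 counts. All 7 had ratios below 1, beside 57.0% of the 356 microRNAs past that count. With TMM, upper-quartile, DESeq2 or deposited TMM scaling 4 of 7 did, beside 52.2% to 53.4% of the 356, and without the 10 most abundant microRNAs 5 of 7 did, beside 54.8%. By the size rule 1 of the 7 was lower and 0 higher, near the 13.5% and 4.49% over the 356. Their median log2 ratio was -0.33, beside -0.14 over the 356. The most abundant of them were miR-143-3p (ratio 0.971, 0.956 to 0.987), miR-107-3p (0.784, 0.765 to 0.804), miR-145a-5p (0.795, 0.771 to 0.819) and miR-22-3p (0.671, 0.649 to 0.693). The member past the size rule was miR-194-5p, at 97 counts in db/+ against 36 in db/db (0.396, 0.262 to 0.586). For the rest of the 7 the interval of the ratio included 1.

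Of 4 microRNAs reported to target p53 itself, 3 had ratios above 1 and 1 below, under each scaling tried. Over all 356 the ratio was above 1 for 153 by column totals and for 170 with upper-quartile factors. The median log2 ratio of the 4 was 0.21, beside -0.14 over the 356. For miR-504-5p, named in the title of the series, there were 17 counts in db/+ against 146 in db/db, with a ratio of 9.16 (5.53 to 16.2), the only 1 of the 4 past the size rule. The others were miR-25-3p at 1.33 (1.32 to 1.35), miR-125b-5p at 1.01 (1.001 to 1.02) and miR-30d-5p at 0.880 (0.862 to 0.898). Messenger RNA and protein, p53 included, were not analysed here.

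The microRNAs with the most similar levels were found by distance in log2 CPM over the 2 libraries, among 307 other microRNAs with at least 50 counts in both. Nearest to miR-34c-5p were miR-152-3p (distance 0.33, 1421 and 1238 CPM), miR-30a-5p (0.40, 1395 and 1415 CPM) and miR-185-5p (0.40, 2113 and 1560 CPM). Their ratios were 0.871, 1.01 and 0.738. Nearest to miR-34a-5p were miR-17-5p (distance 0.16, 54.9 and 24.2 CPM), miR-350-3p (0.19, 55.02 and 30.9 CPM) and miR-872-5p (0.43, 44.6 and 34.3 CPM). Their ratios were 0.442, 0.561 and 0.769. With 2 libraries this measure describes level and ratio only.

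**Figure D4:**
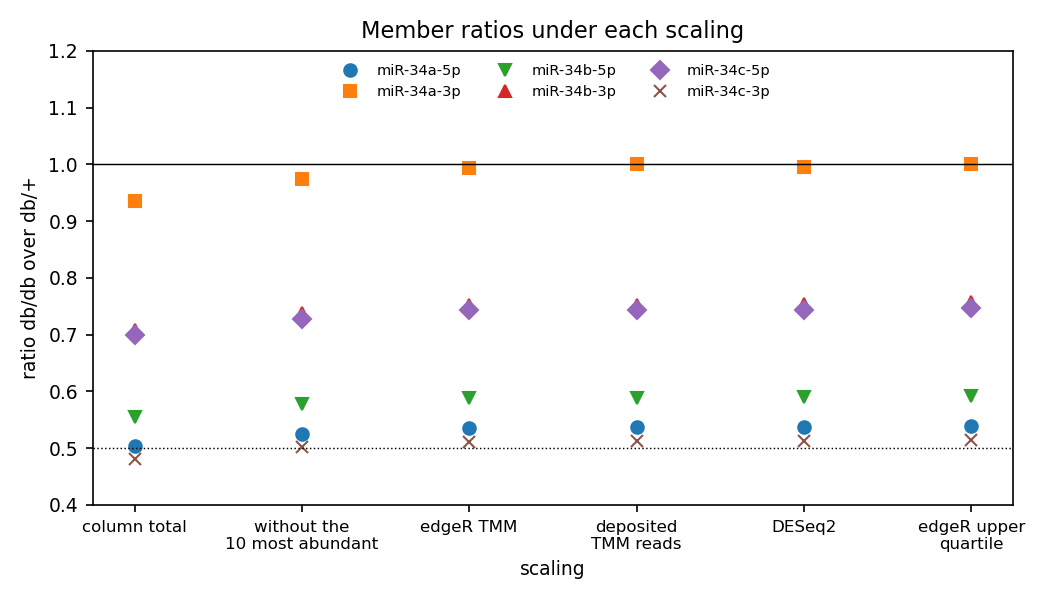
Ratio db/db over db/+ of the 6 miR-34 arms under the column totals and under 5 other scalings, with solid and dotted lines at ratios of 1 and 0.5. Each other scaling moves all 6 upward together, miR-34c-3p from 0.481 to above 0.5 and miR-34a-3p from 0.935 to about 1.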

How the data were processed

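Mature microRNAs were counted in 2 small RNA libraries, 1 per group. The authors' tables give, per the file headers, raw reads as whole counts and reads after TMM scaling (trimmed mean of M values). The deposited normalized reads are whole numbers and were treated as a score, used only as an alternative scaling. Novoalign, edgeR and mm10 are named in the submitters' processing notes, without version or role. Adapter trimming, allowed mismatches and the catalogue of names are not given in the sources used here.

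Counts were scaled to each column's total. With 1 library per group no residual degrees of freedom remained, so edgeR's quasi-likelihood test was not fitted and no p-value was computed. A size rule (ratio of at most 0.5 or at least 2, with at least 50 counts in a library) took its place. Intervals were computed with scipy 1.17.1 and R 4.3.3 and tested on simulated counts. Alternative scalings used edgeR 4.0.16 and DESeq2 1.42.0. The members and lists were chosen with earlier results of these data known. Named microRNAs were all members, other mature forms of their hairpins or with their seed, the 3 nearest in level to miR-34c-5p and to miR-34a-5p, miR-504-5p, and of each p53 list the 4 most abundant and any past the size rule. The epithelial and endothelial marker microRNAs were also named singly, a choice made after their values were seen. Hairpin genes came from GENCODE M21 (GRCm38, also called mm10).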

Additional observations from a re-analysis of the deposited data

How the results depend on the processing

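Scaling moved the miR-34 ratios upward by 0.06 to 0.10 on the log2 scale. The family ratio, 0.692 by column totals, was 0.735 with edgeR TMM factors, 0.740 with upper-quartile factors, 0.737 with DESeq2 size factors, 0.721 without the 10 most abundant microRNAs, 0.736 with the deposited TMM reads, and 0.570 without miR-34c-5p. Members past the size rule, 1 as reported, numbered 0 under each of these 5 scalings, where miR-34c-3p lay between 0.501 and 0.515. Under those scalings 42 to 46 of all 356 microRNAs were lower by the rule and 18 or 19 higher. At a floor of 10 counts 2 of 8 members were past it, beside 91 lower and 46 higher of all 553. With no floor 2 of 8 were, beside 259 lower and 171 higher of all 967. Both settings let in miR-449c-5p. At 1.5-fold 3 of 6 members were past the rule, all lower, beside 86 lower and 48 higher of the 356. The p53-linked median over both lists was -0.08, and with TMM, upper-quartile, DESeq2 or deposited TMM scaling it was above 0, at 0.01 to 0.02. The median over all 356 also rose under these scalings, from -0.14 to between -0.05 and -0.04. Pooling hides that the lists taken apart had medians of -0.33 and 0.21 by column totals. The ratio of miR-34a-5p was 0.526 to 0.540 over the other scalings. For miR-449c-5p, with 1 count in db/+, the log2 ratio was 4.24 with 0.5 counts added, 4.66 with 0.1 and 2.46 with 5. The cause of each change beyond scaling, floor and threshold was not tested. Depth limits the miR-449 arms and miR-34a-3p most. No paired analysis was possible because there was only 1 library a group, and for the same reason neither library could be left out.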
